A study of Homo sapiens with 39 samples.

Results

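The 9 genes FAS, TNFRSF10B, BBC3, PMAIP1, BAX, TP53I3, FDXR, AEN and TP53INP1 are known targets of the transcription factor p53 whose products act in cell death, and their levels were followed in chemically exposed HepaRG cells. They were taken by gene symbol from a table of 20802 gene targets in 39 libraries, where each of the 9 had 1 row. HepaRG is a human hepatoma line whose differentiated cultures mix hepatocyte-like with cholangiocyte-like cells, and it keeps much of the drug metabolism of the liver. The design asks whether genes that answer DNA damage separate chemicals that damage DNA from chemicals that do not.

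Differentiated cultures received 1 of 10 chemicals at a low, a mid or a high concentration in 3 daily treatments, and were harvested 7 h after the last one, at 55 h. The DNA damage-inducing (DDI) chemicals were aflatoxin B1 (AFB1) at 0.25, 1 and 2.5 µM, 2-nitrofluorene (2NF) at 10, 50 and 250 µM, methyl methanesulfonate (MMS) at 50, 100 and 200 µM, etoposide (ETP) at 0.5, 2.5 and 10 µM, and cisplatin (CISP) at 2, 5 and 10 µM. The non-DDI chemicals were colchicine (COL), a spindle poison, at 0.05, 0.1 and 0.3 µM, 2-deoxy-D-glucose (2DG) at 1.25, 5 and 10 mM, ampicillin (AMP) at 1, 3 and 10 mM, sodium ascorbate (ASC) at 1, 2 and 10 mM, and NaCl at 1, 2.5 and 10 mM. The 9 vehicle controls were 4 DMSO, 4 media and 1 water culture set. DMSO was the vehicle of 4 DDI chemicals and COL, water of MMS and media of the other 4 non-DDI chemicals, and AFB1 and COL shared 1 control. Each library held the pooled RNA of 3 cultures of this 1 line, so a condition has no replicate library, and chemicals are the units of every test of a class. The class names follow the study, and the labels give the chemical and its concentration.

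When DNA is damaged, p53 is stabilised and binds response elements near its target genes. Some targets encode receptors at the cell surface that start death from outside the cell, others encode members of the BCL2 family that open the outer mitochondrial membrane, and others act on redox balance, in the nucleus or back on p53. In hepatocytes, killing through the FAS receptor is known to depend on the mitochondrial route as well. The RNA levels of these genes say nothing of how many cells died.

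Promoter windows from RefSeq (GRCh38.p14, from 250 bases before to 50 bases after each gene start) were held for 7 of the 9 genes: FAS, BBC3, PMAIP1, BAX, AEN, TP53I3 and FDXR. They were searched on both strands for the 10-base consensus of the p53 response element, a pair of which makes a full element and which reads alike on both strands. A match stood in 1 of the 3 windows of FAS, in the window of AEN and in 1 of the 2 windows of FDXR, and in none of those of BBC3, PMAIP1, BAX and TP53I3. Of all 35116 windows in the table, 6.63% held a match. The matches of the 3 genes, which are among the 5 that passed the test of the DDI chemicals at the high concentration, are shown with 10 bases on each side, the capitals marking the bases that fit the consensus. The matches themselves start 122 bases before the gene start of their window in FAS (30 bases shown, chr10:88991299-88991328, plus strand), 34 bases before it in AEN (shown, chr15:88621296-88621325, plus strand) and 11 bases before it in FDXR (shown, chr17:74872986-74873015, minus strand). The other windows of FAS end at 88990847 and 88990963, so the FAS match lies after their gene starts.
FAS: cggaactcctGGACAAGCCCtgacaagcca
AEN: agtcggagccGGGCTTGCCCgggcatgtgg
FDXR: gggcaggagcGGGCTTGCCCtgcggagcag
The letters of the capitals are the same in AEN and FDXR. A match of letters is a description of the window and does not show binding.

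Levels were measured by AmpliSeq, which amplifies 1 short stretch of each transcript, and are given in RPM, the reads of a target scaled to a fixed library total. The libraries held 8504699 to 16425527 counts. Hepatocyte markers summed to 29022 to 52560 RPM in the controls with all 12 above 1 RPM in at least 1 control, and of 7 cholangiocyte markers KRT7, EPCAM and CFTR stayed under 1 RPM. Of 5 leukocyte markers only CD14 reached 1 RPM, and PTPRC was at 0 in every library, which allows up to 3 counts a library. Stellate and fibroblast markers summed to 144 to 320 RPM in the controls. In the CISP low library, 15.7% of 12790 targets with a mean of at least 1 RPM were at least 1.5-fold lower than in the control and 3.46% higher, and in the 2DG low library 9.61% were lower and 2.35% higher. In the CISP mid library 14.7% were lower and 8.74% higher. The counts of the 9 genes at the low concentration are also given without CISP or 2DG.

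All 9 genes were higher than in the matched control in the high library of each of the 5 DDI chemicals. In the non-DDI high libraries 8 of the 9 were above the control with COL, 5 with ASC, 4 with AMP, 3 with NaCl and 2 with 2DG. The measure is the log2 ratio, the difference of log2(RPM + 1) between a treated library and its control (treated minus control). Its median over all targets with a mean of at least 1 RPM ran from -0.01 (ETP) to 0.10 (MMS) in the DDI high libraries. In the non-DDI high libraries that median ran from -0.06 (NaCl) to 0.09 (COL). A ratio of at least 1.5-fold was counted as higher. Folds of single libraries are on this RPM + 1 scale, which understates those of low genes. By this count 57 of the 135 pairs of gene and DDI library were higher, beside 7.32% of all pairs of target and DDI library. For the non-DDI chemicals it was 7 of 135, beside 5.89% of all pairs. Lower by at least 1.5-fold were AEN and TP53INP1 in CISP low and BBC3 in AFB1 low, where 15.7% and 1.99% of all targets were lower. Among the non-DDI libraries BBC3 was so in ASC mid, ASC high and NaCl mid, beside 5.49%, 7.16% and 1.78%. These are counts from single libraries, with no replicate check, and in RNA of whole cultures fewer cells of a type and less RNA per cell cannot be told apart.

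Across the concentrations of AFB1, 1, 4 and then 9 of the 9 genes were higher by 1.5-fold, where 2.54%, 2.83% and 10.3% of all targets were. For 2NF the counts were 0, 5 and 7, beside 3.88%, 10% and 10.5% of all targets. MMS gave 1, 6 and 5 genes, beside 4.21%, 14% and 14.9%. ETP gave 1, 4 and 6, beside 6.79%, 8.57% and 5.52%. CISP gave 1, 4 and 3, beside 3.46%, 8.74% and 3.56%. The count was thus largest at the high concentration for AFB1, 2NF and ETP, and at the mid concentration for MMS and CISP.

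Among the non-DDI chemicals, COL gave 1, 1 and 2 genes, beside 4.27%, 6.25% and 12.1% of all targets. 2DG gave 1, 0 and 0, beside 2.35%, 1.95% and 1.51%, and AMP 0, 2 and 0, beside 7.65%, 5.75% and 8.19%. ASC gave none at any concentration, beside 9.16%, 11.5% and 11.8%, and NaCl none, beside 2.13%, 1.25% and 2.53%. Of the 7 pairs, 4 were PMAIP1 (COL at each concentration and AMP mid), 2 were BBC3 (2DG low and COL high) and 1 was TP53INP1 (AMP mid). FAS, TNFRSF10B, BAX, AEN, TP53I3 and FDXR were 1.5-fold higher in no non-DDI library.

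**Figure D1:**
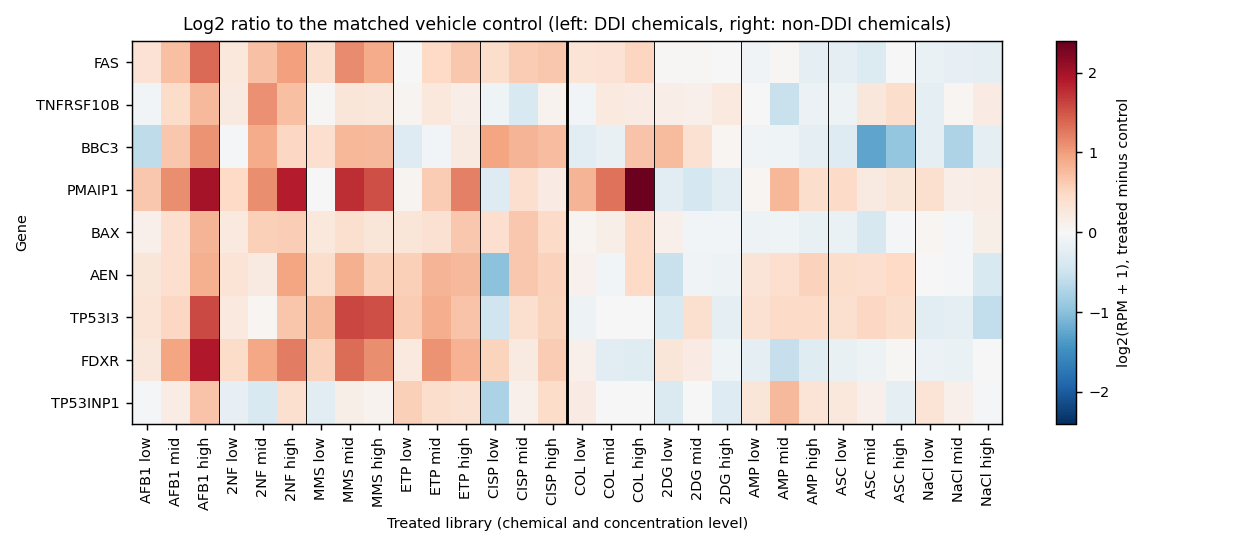
Log2 ratio of each gene (rows) to its matched vehicle control in each of the 30 treated libraries (columns, by chemical and concentration level). Red is higher and blue lower than the control. At the high concentration all 9 genes are red for each DDI chemical, while among the non-DDI chemicals the strongest red is PMAIP1 in COL high, at 2.35.

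FAS, the receptor for FAS ligand (target AMPL2892763), was the gene whose levels followed the other 8 most closely. In the DMSO controls it stood at 48.8, 60.3, 50.8 and 51.9 RPM (for CISP, 2NF, AFB1 with COL, and ETP), in the media controls at 74.0, 71.3, 63.8 and 66.2 RPM (for NaCl, 2DG, ASC and AMP), and in the water control at 68.1 RPM. With AFB1 it was 64.9, 84.4 and 132 RPM as the concentration went up, and with 2NF 71.8, 98.2 and 120 RPM. Both series climbed at each step. With MMS it was 89.3, 151 and 127 RPM, with its highest value at the mid concentration. With ETP it was 51.3, 72.5 and 82.0 RPM and with CISP 66.0, 75.1 and 76.7 RPM. With COL it was 64.2, 64.8 and 73.3 RPM, above all 4 DMSO controls, and in the other 12 non-DDI libraries it lay between 50.9 and 73.2 RPM, within or below the range of the media controls (63.8 to 74.0 RPM).

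At the high concentration the DDI chemicals raised FAS by 0.83 on the log2 scale (SE 0.11, edgeR adjusted p = 0.0041), as estimated over 5 chemicals with their matched controls as blocks. In this comparison 1.43% of 13246 genes passed as higher. The log2 ratio was positive for 5 of 5 chemicals, from 0.64 to 1.36, and each lay above the highest of the non-DDI chemicals, 0.52 for COL. At the mid concentration the estimate was 0.66 (SE 0.11, edgeR adjusted p = 0.032), where 0.121% of 13273 genes passed as higher.

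TNFRSF10B (AMPL27739763) encodes the TRAIL receptor DR5. Its levels at the high concentration were 331 RPM with AFB1 (control 193), 239 RPM with 2NF (control 145), 333 RPM with MMS (control 275), 174 RPM with ETP (control 156) and 221 RPM with CISP (control 209). The gain was thus 1.71-fold and 1.64-fold for AFB1 and 2NF and 1.06-fold to 1.21-fold for the other DDI chemicals. In 2NF mid it reached 313 RPM. The DDI estimate at the high concentration was 0.37 (SE 0.12, edgeR adjusted p = 0.12) and did not pass. Among the non-DDI libraries ASC high had the largest log2 ratio, 0.42, and AMP mid the lowest, -0.53.

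FAS was at least 1.5-fold higher in 9 of 15 DDI libraries and TNFRSF10B in 3 (2NF mid, 2NF high and AFB1 high). Of all pairs of target and DDI library, 7.32% were. The largest gap between 2 DMSO controls was 0.30 on the log2 scale for FAS and 0.52 for TNFRSF10B.

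BAX (AMPL27247904) encodes the protein that, once active, opens the outer mitochondrial membrane. It stood at 115, 135, 134 and 114 RPM in the DMSO controls, 163 to 191 RPM in the media controls and 199 RPM in the water control. With AFB1 high it was 237 RPM, and in the other high libraries 203 RPM with 2NF, 244 RPM with MMS, 179 RPM with ETP and 159 RPM with CISP. Each was above its own control, and those in DMSO were above all 4 DMSO controls. The estimate was 0.48 (SE 0.10, edgeR adjusted p = 0.032). BAX was the member with the smallest spread between DDI chemicals at the low concentration (SD 0.10, n = 5, mean 0.26), and there each DDI log2 ratio (0.124 to 0.409) exceeded each non-DDI one (at most 0.118).

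PMAIP1 (AMPL36551690) encodes NOXA, a BH3-only protein that neutralises MCL1. In the controls it lay between 8.31 and 20.1 RPM. With AFB1 it was 13.7, 19.3 and 36.1 RPM, with 2NF 13.5, 21.7 and 37.7 RPM, and with ETP 14.6, 21.6 and 33.2 RPM. With MMS it was 14.8, 53.5 and 45.2 RPM. With CISP it was 11.2, 19.2 and 16.4 RPM, within the range of all controls. The mid and high levels with CISP were above all 4 DMSO controls, which reached at most 14.2 RPM. The highest level of any non-DDI library was that of COL high, 46.4 RPM.

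The DDI estimate for PMAIP1 at the high concentration was 1.14 (SE 0.31, edgeR adjusted p = 0.080) and did not pass, although the mean log2 ratio of the 5 chemicals was 1.36 (SD 0.72, n = 5). CISP had the smallest ratio, 0.20, and AFB1 the largest, 1.99. Without COL in the fit the estimate passed, as given among the limits.

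BBC3 (AMPL2181983) encodes PUMA, a BH3-only protein that binds all the main survival members of the BCL2 family. It was the least abundant of the 9 in counts, with 25 to 164 counts a library, and its row also carries the identifiers of the overlapping MIR3190 and MIR3191. In the high libraries it was 11.0 RPM with AFB1 (95% Poisson interval 9.13 to 13.2), against 4.73 RPM in the control (3.65 to 6.01). It was 14.2 RPM with MMS (control 7.85), 7.13 RPM with CISP (control 3.88), 7.19 RPM with 2NF (control 4.82) and 7.06 RPM with ETP (control 5.98). AFB1, MMS and CISP passed 1.5-fold, and CISP did so at each concentration, with 8.34 RPM at the low, 7.56 RPM at the mid and 7.13 RPM at the high one. The class estimate was 0.61 (SE 0.20, edgeR adjusted p = 0.14) and did not pass. ASC had 0.41-fold and 0.53-fold of its control at the mid and high concentrations, its control being the highest of the 9 at 9.98 RPM.

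**Figure D2:**
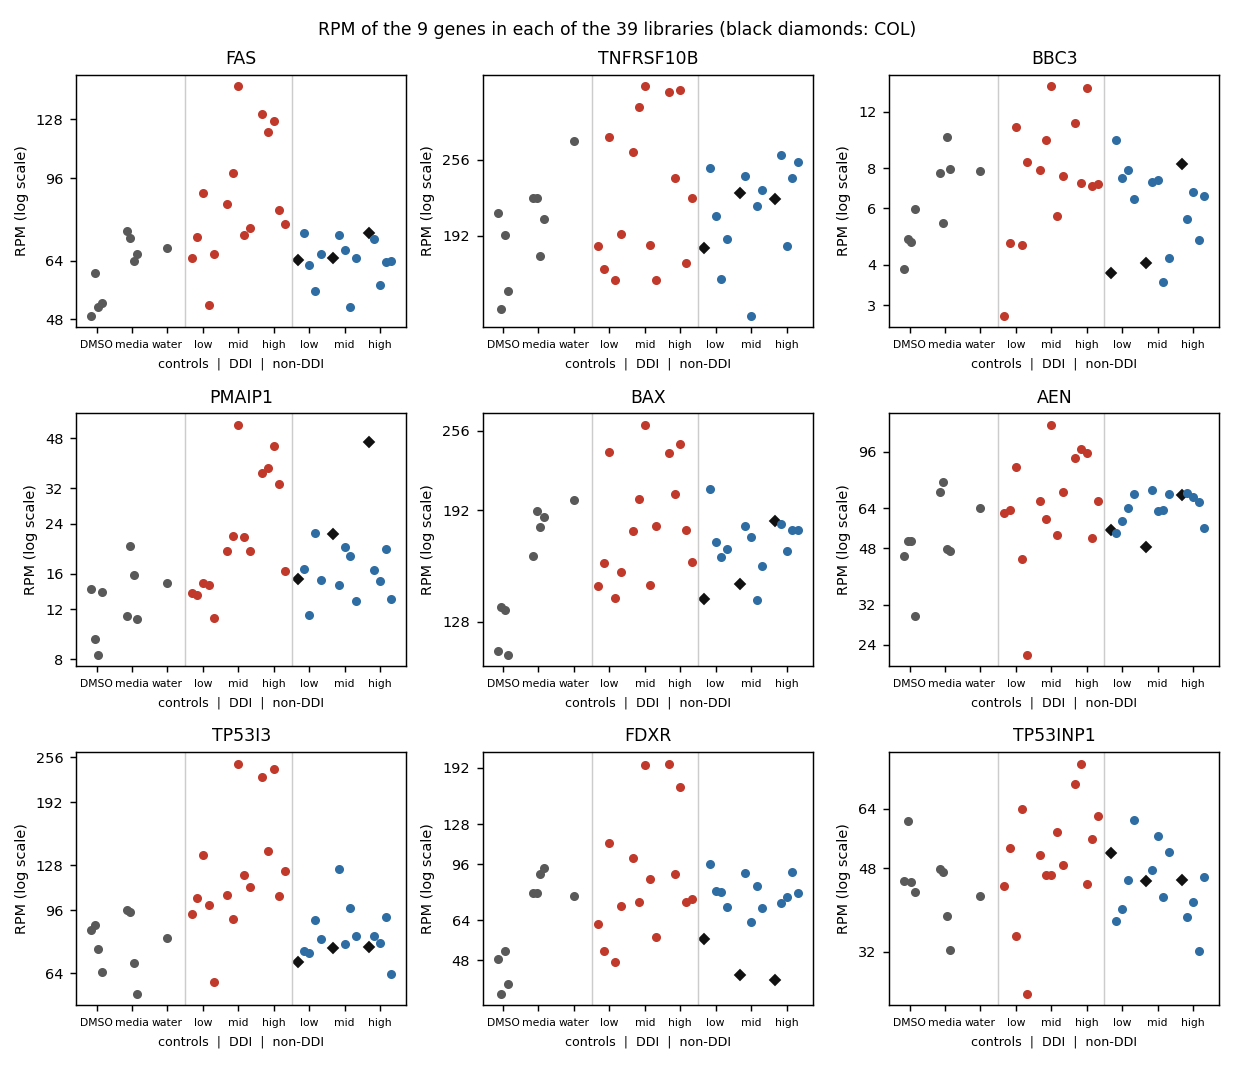
RPM (vertical, log scale) of each gene in all 39 libraries, with controls by vehicle in grey, DDI libraries in red and non-DDI libraries in blue, by concentration level. Black diamonds mark COL. FDXR, BAX and FAS are lower in all 4 DMSO controls than in all 4 media controls, and the PMAIP1 diamond for COL high sits at 46.4 RPM.

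TP53I3 (AMPL28492395) encodes PIG3, a quinone oxidoreductase linked to reactive oxygen. Its controls lay between 56.2 and 96.0 RPM, with no split by vehicle. With AFB1 it was 93.8, 106 and 226 RPM, with MMS 136, 246 and 237 RPM, with 2NF 104, 90.6 and 140 RPM, with ETP 99.2, 120 and 105 RPM, and with CISP 60.5, 111 and 124 RPM. AFB1 high, MMS mid and MMS high were the libraries near 3-fold, at 2.99-fold, 3.03-fold and 2.92-fold. COL left it at 68.8, 75.2 and 75.8 RPM beside a control at 75.0 RPM. The DDI estimate at the high concentration was 1.00 (SE 0.17, edgeR adjusted p = 0.015).

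FDXR (AMPL36769152) encodes ferredoxin reductase, the mitochondrial enzyme that passes electrons from NADPH to ferredoxin. It stood at 48.6, 37.8, 51.6 and 40.4 RPM in the DMSO controls, at 77.8, 77.9, 89.5 and 93.0 RPM in the media controls and at 76.2 RPM in the water control. With AFB1 it was 62.4, 100 and 197 RPM, with 2NF 51.6, 72.8 and 89.6 RPM, and with MMS 112, 195 and 167 RPM. With ETP it was 47.6, 86.0 and 73.0 RPM and with CISP 71.0, 56.7 and 74.5 RPM. The ETP high and CISP high levels were thus above every DMSO control and below every media control.

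FDXR had the largest class estimate at the high concentration, 1.18 (SE 0.16, edgeR adjusted p = 0.0049), with 5 of 5 chemicals positive from 0.61 to 1.92. At the mid concentration it was 0.90 (SE 0.14, edgeR adjusted p = 0.018). In all 5 non-DDI chemicals at the high concentration its log2 ratio lay between -0.29 and 0.02.

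AEN (AMPL36284041), a nuclease that enhances apoptosis, stood at 45.3, 50.6, 50.6 and 29.5 RPM in the DMSO controls, the ETP control being the lowest. Its levels in the high libraries were 92.0 RPM with AFB1, 98.0 RPM with 2NF, 95.2 RPM with MMS (control 64.1), 51.6 RPM with ETP and 67.3 RPM with CISP. The log2 ratios lay between 0.56 and 0.94. The estimate was 0.67 (SE 0.13, edgeR adjusted p = 0.020). AMP, ASC and COL at the high concentration had log2 ratios of 0.55, 0.48 and 0.47, just below the lowest DDI ratio, while in CISP low AEN was at 22.3 RPM, the lowest of all 39 libraries.

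TP53INP1 (AMPL16209573), a stress protein that acts on p53 and in autophagy, moved least with the others. In the high libraries it was 72.4 RPM with AFB1, 79.7 RPM with 2NF, 44.4 RPM with MMS, 55.4 RPM with ETP and 61.8 RPM with CISP, and the estimate was 0.36 (SE 0.11, edgeR adjusted p = 0.11). AFB1 high was the single DDI library past 1.5-fold. At the low and mid concentrations the mean DDI log2 ratios of TP53INP1 were -0.14 and 0.10. Those of the non-DDI chemicals were larger, at 0.15 and 0.21. Its correlation with the mean of the other 8 genes over the 39 libraries was 0.17, where those of the others ran from 0.62 for BBC3 to 0.91 for FAS. Over the 36 gene pairs the median r was 0.57 and the highest was 0.83 for FAS with BAX. These correlations are descriptions across libraries that share controls, vehicles and concentration steps.

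Taking the classes as a whole, 5 of the 9 genes passed as higher with the DDI chemicals at the high concentration (FAS, FDXR, TP53I3, AEN and BAX). Of all 13246 genes, 1.43% did. All 9 had an unadjusted p under 0.05 as higher, where 7.84% of all genes did. Without AFB1 in the fit 0 of the 9 and 0 of 13339 genes passed at the high concentration, with estimates of 0.75 for FAS and 0.91 for FDXR (edgeR adjusted p = 0.053 for both). Without 2NF 3 of the 9 passed, among 63 of 13327 genes. At the mid concentration FAS and FDXR passed as higher, beside 0.121% of 13273 genes. Of the 9, 7 had an unadjusted p under 0.05 as higher there, beside 4.72% of all genes. But 0 of the 9 passed there without 2NF, AFB1, ETP or MMS, when 8, 1, 0 and 3 of all genes passed as higher. At the low concentration edgeR called 0 of the 9 and 0% of 13274 genes, and 3 had an unadjusted p under 0.05, beside 1.57%. DESeq2 also called 0 of the 9 there, as did edgeR without CISP or 2DG, in both cases with 4 at an unadjusted p under 0.05. For the non-DDI chemicals edgeR called 0 of the 9 and 0% of genes as higher at each concentration, with 0 of the 9 at an unadjusted p under 0.05, beside 2.55%, 2.29% and 0.799% of all genes at the high, mid and low concentrations. Without 2DG 1 of the 9 had an unadjusted p under 0.05 as higher at the low concentration. DESeq2 called 0 there too.

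**Figure D3:**
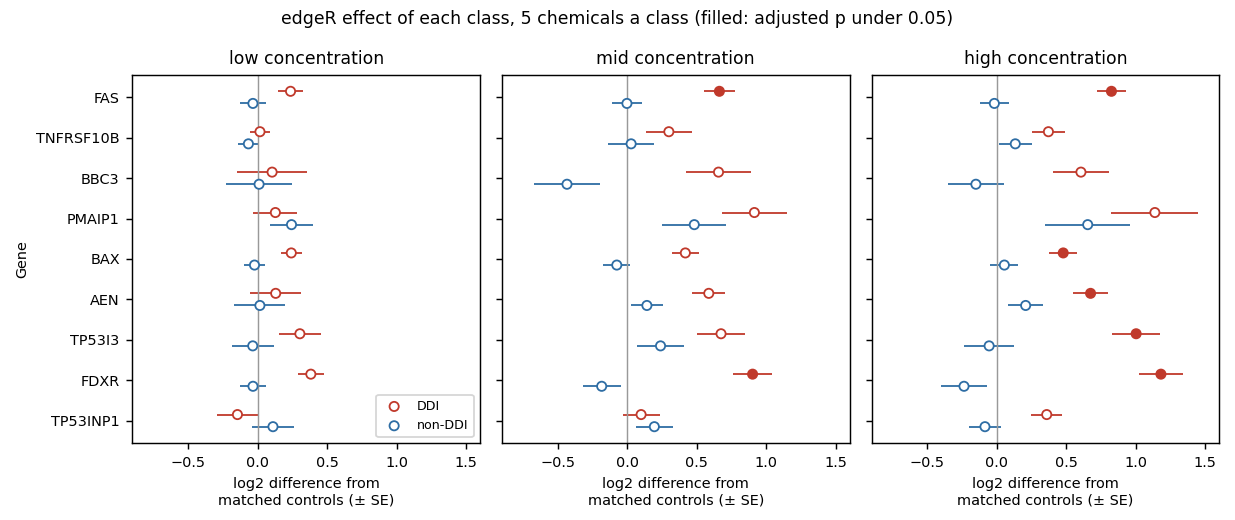
edgeR log2 difference from the matched controls (horizontal, ± SE) for each gene in the DDI (red) and non-DDI (blue) chemicals, 5 chemicals each, at the low, mid and high concentrations. Filled points passed an adjusted p of 0.05. At the high concentration 5 red points are filled, and FDXR lies farthest right at 1.18.

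The difference between the classes was tested on its own. At the high concentration FDXR was the only member that passed, with a DDI effect larger than the non-DDI effect by 1.42 (SE 0.21, edgeR adjusted p = 0.040), where 0.0453% of genes, 6 in all, passed as higher. FAS followed at 0.84 (SE 0.14, edgeR adjusted p = 0.057) and TP53I3 at 1.06 (SE 0.23, edgeR adjusted p = 0.13). An unadjusted p under 0.05 was reached by 7, 5 and 3 of the 9 from the high concentration down, beside 4.31%, 2.52% and 1.21% of all genes. At the mid and low concentrations edgeR called 0 of the 9 and 0% of all genes, while DESeq2 called 1 and 0. The FDXR call was kept without CISP or MMS and lost without any 1 of the other 8 chemicals, with an estimate of 1.05 without AFB1 and of 1.18 to 1.48 without the others. Without COL the 1 of the 9 that passed was FAS, among 11 of 13337 genes that passed as higher. With no control set block FDXR had 0.67 (edgeR adjusted p = 0.31). TP53I3 was then the 1 of the 9 that passed, among 12 of 13246 genes that passed as higher. The FDXR call was also lost in the DMSO libraries alone, where its estimate was 1.92 (SE 0.36, edgeR adjusted p = 0.078).

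Each DDI log2 ratio lay above each non-DDI one for 4 of the 9 genes at the top concentration (FAS, AEN, TP53I3 and FDXR), 3 at the middle one (FAS, BAX and FDXR) and 1 at the lowest (BAX). The share of all targets with such a separation was 0.923%, 0.805% and 0.211%. FAS and FDXR separated at both the mid and the high concentration. Without 2DG, whose low library held the highest non-DDI ratio of BAX, 2 genes separated at the lowest concentration (BAX and FDXR, beside 0.493% of all targets), and without CISP 1 did (BAX, beside 0.422%). Without COL 6 separated at the top concentration, beside 4.03%. PMAIP1 separated at no concentration, with or without COL.

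Within a chemical, the high libraries were also compared with the low ones, a test that no control library enters. In the DDI chemicals PMAIP1 rose by 1.20 (SE 0.22, edgeR adjusted p = 0.019), FAS by 0.58 (SE 0.11, edgeR adjusted p = 0.021) and TP53I3 by 0.67 (SE 0.13, edgeR adjusted p = 0.023), where 1.28% of 13186 genes passed as higher. At an unadjusted p under 0.05, 8 of the 9 were higher, beside 7.87% of all genes. FDXR had 0.69 (SE 0.18, edgeR adjusted p = 0.061) and BAX 0.25 (SE 0.11, edgeR adjusted p = 0.26). Without 2NF, AFB1 or MMS 0 of the 9 passed, when 18, 18 and 58 of all genes did. Without CISP, ETP or COL 4 of the 9 passed, when 320, 235 and 207 of all genes passed as higher.

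In the non-DDI chemicals 0 of the 9 and 0% of genes passed between high and low, with 0 of the 9 at an unadjusted p under 0.05, beside 2.19% of genes. DESeq2 called 0 of the 9 as well. The difference between the concentration effects of the classes passed for 0 of the 9 and 0% of genes in edgeR, with 5 of the 9 at an unadjusted p under 0.05, beside 3.88% of genes. A dependence on concentration that differs between the classes was therefore not shown for any of the 9.

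Steps from control to low, mid and high that each went up were found for 6 genes with AFB1 (FAS, PMAIP1, BAX, AEN, TP53I3 and FDXR), 4 with 2NF (FAS, PMAIP1, BAX and FDXR), 2 with ETP (PMAIP1 and BAX), 1 with CISP (FAS) and 0 with MMS. The shares of all targets that did so were 14.3%, 9.62%, 4.22%, 2.17% and 12.2%. With MMS each of the 9 genes was highest at the mid concentration. COL gave 3 such genes (FAS, PMAIP1 and BAX), beside 13.8% of all targets, and AMP 2 (AEN and TP53I3), beside 3.38%. ASC, 2DG and NaCl gave 0, beside 7.65%, 3.13% and 5.26%.

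COL and AFB1 were measured against the same DMSO control, so their values can be set side by side. PMAIP1 was at 8.31 RPM in that control (95% Poisson interval 6.86 to 9.96), at 15.4, 22.0 and 46.4 RPM with COL, and at 13.7, 19.3 and 36.1 RPM with AFB1. COL high was 5.10 times and AFB1 high 3.99 times the control on the RPM + 1 scale, and 5.59 and 4.35 times in RPM. FDXR was at 56.2, 43.1 and 41.9 RPM with COL beside 62.4, 100 and 197 RPM with AFB1, from 51.6 RPM in the control. TP53I3 at the high concentration was 1.01-fold with COL and 2.99-fold with AFB1. FAS, BAX and AEN had log2 ratios of 0.52, 0.46 and 0.47 in COL high beside 1.36, 0.82 and 0.85 in AFB1 high, and BBC3 0.69 beside 1.07. The control these values share is also the lowest of the 9 for PMAIP1.

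**Figure D4:**
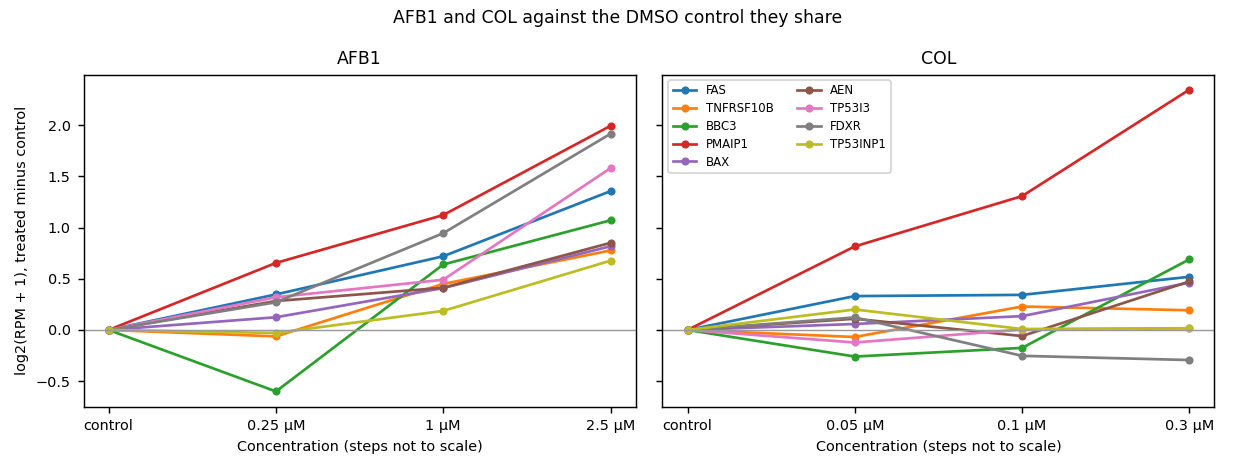
Log2 ratio to the shared DMSO control (vertical) of each gene at the control and the 3 concentrations of AFB1 (left) and COL (right). PMAIP1 reaches 1.99 with AFB1 and 2.35 with COL, while FDXR reaches 1.92 with AFB1 and -0.29 with COL.

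FDXR and BAX differed between the vehicles. FDXR was lower in the 4 DMSO controls than in the 4 media controls by 0.90 on the log2 scale (DMSO minus media -0.90, SE 0.13, edgeR adjusted p = 0.0045), at 44.6 ± 6.53 RPM (SD, n = 4) beside 84.6 ± 7.87 RPM (SD, n = 4). BAX was lower by 0.51 (DMSO minus media -0.51, SE 0.10, edgeR adjusted p = 0.018), at 124 ± 11.5 RPM beside 180 ± 12.6 RPM (SD, n = 4 each). These were 2 of the 9 (1 of the 9 without the CISP, 2DG, AMP or ETP control), and 3.68% of 13053 genes passed as lower in DMSO. FAS had -0.36 (SE 0.10, edgeR adjusted p = 0.070), and its DMSO and media controls did not overlap. TP53I3 had 0.00 (SE 0.17) and TP53INP1 0.24 (SE 0.15); neither passed.

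Cell type markers moved in the same comparison of controls. Of 12 hepatocyte markers 4 were called higher in DMSO (median 0.43), of 5 tested stellate and fibroblast markers 3 lower (median -0.50), and of 4 tested cholangiocyte markers 1 higher and 1 lower (median -0.94). Their part in the lower FDXR and BAX was not tested.

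Since most DDI chemicals came in DMSO and most non-DDI chemicals in media, vehicle and class cannot be told apart in a comparison across vehicles. Within the DMSO libraries alone, 4 DDI chemicals at the high concentration raised 4 of the 9 genes, among 121 of 13562 genes that passed as higher: FAS by 0.89 (SE 0.12, edgeR adjusted p = 0.034), AEN by 0.76 (SE 0.09, edgeR adjusted p = 0.027), BAX by 0.60 (SE 0.09, edgeR adjusted p = 0.034) and FDXR by 1.13 (SE 0.19, edgeR adjusted p = 0.043). TP53I3 had 0.84 (SE 0.16, edgeR adjusted p = 0.058). This fit was added after the data had been seen and leaves 3 residual degrees of freedom. COL, the 1 non-DDI chemical in it, is assumed to vary like the others. Media held non-DDI chemicals alone and water MMS alone.

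Hepatocyte markers were lower in several of the libraries where the 9 genes were higher. In the high libraries the median log2 ratio of the 12 markers was -1.77 with MMS, -1.54 with AFB1, -1.40 with COL and -1.29 with 2NF, but -0.26 with CISP and -0.14 with ETP, and between -0.14 and 0.24 with 2DG, AMP, ASC and NaCl. Their summed level ran from 9077 to 44338 RPM in the DDI high libraries, from 22645 to 46875 RPM in the non-DDI high libraries and from 29022 to 52560 RPM in the controls, and none of the 12 was at 0. CYP2E1 and CYP3A4, enzymes of drug metabolism, had mean DDI log2 ratios of -2.18 and -2.05 at the high concentration, and FGB and SERPINA1 of -0.17 and -0.15. None of the 12 passed in edgeR for the DDI chemicals against their controls at that concentration (median of the fitted differences -0.85). Between the high and low libraries of the DDI chemicals 2 of the 12 passed as lower (median -0.84), among 57 of 13186 genes. The part of cell makeup in the rise of the 9 genes was not tested.

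Summed cholangiocyte markers ran from 318 to 1367 RPM in the DDI high libraries beside 465 to 1456 RPM in the controls, and 0 of the 4 tested passed. SOX9 and KRT19 had the lowest mean DDI log2 ratios, -0.60 and -0.16, and KRT7 and EPCAM, both under 1 RPM, the highest, 0.09 and 0.00. Stellate and fibroblast markers ran from 166 to 280 RPM beside 144 to 320 RPM. Of the 5 tested, ACTA2, which encodes smooth muscle actin and has itself been described as a p53 target, passed at 0.54 (edgeR adjusted p = 0.035). The leukocyte sum ran from 14.0 to 30.3 RPM beside 23.8 to 43.4 RPM, with 0 of 1 tested passing. CD14 had a mean DDI log2 ratio of -0.38 and LYZ, under 1 RPM, of -0.07, and the other 3 markers were at or near 0 RPM.

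Genes of the p53 feedback loop were examined for the same comparison. Of the 5 genes in this list, 3 rose with the DDI chemicals at the high concentration: MDM2, the ligase that degrades p53, by 1.05 (SE 0.21, edgeR adjusted p = 0.026), PPM1D, a phosphatase that resets the pathway, by 0.67 (SE 0.14, edgeR adjusted p = 0.028) and CDKN1A, the cell cycle inhibitor p21, by 0.49 (SE 0.11, edgeR adjusted p = 0.033). These calls stood beside 1.43% of all genes and were lost without AFB1, when 0 of all genes passed. The median over the 5 was 0.49, beside 0.00 over all genes tested. For the difference between classes 0 of the 5 passed.

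Other components of the receptor route were examined for the DDI chemicals at the high concentration. Of 15 tested genes of the death receptor pathway 0 passed in either direction, where 1.43% of all genes passed as higher. The median was 0.19, and 12 had a difference above 0. In the non-DDI chemicals 12 of the 15 were also above 0, with a median of 0.09. TNFRSF10A, the other TRAIL death receptor, had a mean DDI ratio of 0.73 on the log2 scale (SD 0.39, n = 5) and the decoy receptor TNFRSF10D 0.56 (SD 0.41). The ligand TNFSF10 had -0.33 (SD 0.67) and CFLAR, an inhibitor of caspase activation, -0.28 (SD 0.20). FASLG, the ligand of FAS, had a mean of 0.012 RPM over the libraries.

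Of 16 tested genes of the BCL2 family and the apoptosome 0 passed, beside 1.43% of all genes as higher. The median was 0.02, and 8 lay above 0. BIK, a BH3-only gene at a mean of 0.88 RPM, averaged a log2 ratio of 0.62 (SD 0.28, n = 5) and BCL2L1, the survival gene of BCL-XL, 0.59 (SD 0.16). BMF and BCL2L11, both BH3-only genes, had -0.56 (SD 0.73) and -0.21 (SD 0.42).

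Of 16 tested genes in a list of other p53 death targets 0 passed, beside 1.43% of all genes as higher. In the DDI chemicals 14 lay above 0, with a median of 0.33, and in the non-DDI chemicals 9, with a median of 0.05. TNFRSF10A and BCL2L1, which this list shares with those above, had the largest mean DDI ratios. TNFRSF10C and STEAP3 had the smallest, at -0.04 and -0.21. Of 10 stress-response regulators 0 passed, with a median of 0.08. ATF3, which stress pathways other than p53 also induce, had a mean log2 ratio of 0.88 (SD 0.94) in the DDI and 0.99 (SD 1.12) in the non-DDI chemicals at the high concentration. SESN2 followed at a DDI mean of 0.47 (SD 0.52), and HERPUD1 and DNAJB9 were lowest, both at -0.04.

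Among 10675 other targets with a mean of at least 5 RPM, the pattern over the 39 libraries was most like the mean of the 9 genes in E2F7 (Pearson r 0.93), C16orf5 (0.91), CDCA5 (0.91), APOBEC3B (0.90) and CDK1 (0.90). E2F7 encodes a repressor of cell cycle genes, CDCA5 a protein of sister chromatid cohesion, APOBEC3B a cytidine deaminase and CDK1 the mitotic kinase. C16orf5 is the older symbol of CDIP1. The values describe likeness across libraries that share controls and concentration steps.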

How the data were processed

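RNA of 3 pooled HepaRG cultures per condition was sequenced with the AmpliSeq whole-transcriptome panel on an Ion Torrent instrument, and the authors aligned the reads to hg19 with TMAP and counted them per amplicon with the ampliSeqRNA plugin. The authors deposited read counts per target and RPM, which scale each library's counts to a fixed total. Both tables hold 20812 targets, of which 10 spike-ins with no count were left out. Libraries held 8504699 to 16425527 counts, and Poisson intervals cover counting error only.

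Groups follow the labels, and the DDI and non-DDI classes follow the study. Log2 ratios used RPM with a pseudocount of 1 over 12790 targets with a mean of at least 1 RPM. Class effects came from edgeR 4.0.16 (R 4.3.3) with its quasi-likelihood test, TMM scaling, its default low-count filter and Benjamini-Hochberg adjustment over all genes tested at 0.05. Each fit of 1 concentration level took 19 libraries, with the control set as a block. The p-values of the class effects measure the spread between chemicals, since no condition was replicated. Both classes share 1 estimate of that spread, so the non-DDI chemicals also enter the p-values of the DDI chemicals. The alternatives were DESeq2 1.42.0, other scalings, filters and pseudocounts, no block, 1 fit of all 39 libraries and leaving out each chemical, and, added after the data had been seen, the DMSO libraries alone and the separation of the classes without each chemical. Scripts were tested on simulated data. The 9 genes and all gene lists (p53 feedback loop, other p53 death targets, death receptor pathway, BCL2 family and apoptosome, stress-response regulators, and hepatocyte, cholangiocyte, leukocyte, and stellate and fibroblast markers) were chosen with earlier results of these data known. Values of 1 gene in each of 2 lists are not reported here. The text names all 9 genes and every list gene that passed for the DDI chemicals or between the classes at the high concentration. Where none did, it names those with the 2 largest and 2 smallest mean DDI ratios there. Promoter windows come from RefSeq for GRCh38.p14, another build than the hg19 of the files, and none of the files' coordinates were used. Figures were drawn with matplotlib 3.10.9 in Python 3.11.15.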

Additional observations from a re-analysis of the deposited data

Results flagged for a closer look

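Within a class and concentration level, or among the 4 controls of a vehicle, 8 of 72 groups of 4 or 5 libraries held a library farther from the rest than Dixon's test allows at the 95% level, where chance flags about 1 group in 20 (5%). PMAIP1 in COL high had a log2 ratio of 2.35, where the other non-DDI high libraries had -0.27 to 0.42. AEN in CISP low had -0.99 beside 0.28 to 0.58. TNFRSF10B in AMP mid had -0.53 beside 0.04 to 0.27. BBC3 in ETP mid had -0.060 beside 0.64 to 0.90, and in 2DG low 0.75 beside -0.31 to -0.08. TP53INP1 was set apart in 2DG low (-0.34 beside 0.20 to 0.34), in AMP mid (0.78 beside 0.01 to 0.13) and in the DMSO control of 2NF (60.4 RPM beside 42.7 to 45.0 RPM). In CISP low and 2DG low more targets were lower than higher, by 1.5-fold (15.7% beside 3.46%, and 9.61% beside 2.35%). More were lower than higher in CISP mid (14.7% beside 8.74%), NaCl high (5.39% beside 2.53%) and 2DG high (3.04% beside 1.51%) as well.

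FDXR is listed because its effect differed between the classes at the high concentration by 1.42 in the test of the difference itself (edgeR adjusted p = 0.040). The DDI log2 ratios were above 0 for 5 of 5 chemicals.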

How the results depend on the processing

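Counts are of the 9 genes called as higher, with all genes called as higher in square brackets. For the DDI chemicals at the high concentration (5 [190]), the fit with no control set block gave 3 [52], and leaving out 1 chemical gave 0 [0] (AFB1) to 7 [474] (COL, where PMAIP1 was one of those called, edgeR adjusted p = 0.0078). At the mid concentration (2 [16]) DESeq2 gave 6 [158], 1 fit of all 39 libraries 4 [92], no block 0 [0], DMSO libraries only 0 [0], and leaving out 1 chemical 0 to 4 [0 to 114]. For the difference between classes at the high concentration (1 [6]), no low-count filter gave 2 [30], a minimum of 10 counts in every library 0 [0], DESeq2 3 [79], all 39 libraries 3 [125], DMSO libraries only 0 [18], and leaving out 1 chemical 0 to 1 [0 to 14]. At the mid concentration (0 [0]) DESeq2 gave 1 [11], all 39 libraries 2 [14], and leaving out 1 chemical 0 to 1 [0 to 2]. For high against low DDI (3 [169]), no filter gave 5 [256], DESeq2 6 [299], and leaving out 1 chemical 0 to 4 [18 to 320]. For DMSO against media controls (2 genes lower), leaving out 1 control gave 1 to 2. Genes whose DDI ratios all exceeded the non-DDI ones numbered 1 to 2 (low), 3 to 4 (mid) and 4 to 6 (high) when 1 chemical was left out. At a 2-fold threshold the pairs of gene and library fell from 57 to 19 (DDI) and from 7 to 2 (non-DDI), and leaving out 1 chemical gave 43 to 49 and 3 (COL) to 7. Differences that reversed were PMAIP1 between classes at the high concentration in DMSO libraries only (-0.65) and TNFRSF10B between classes for high against low, which ran from -0.030 (without AMP) to 0.16 (without ASC) and was also below 0 without AFB1 (-0.02). None of these passed. In the DMSO libraries COL was the 1 non-DDI chemical, and PMAIP1 in COL high had a log2 ratio of 2.35. The cause of the reversals was not tested. In all, 227 of 270 alternative counts stayed within 1.5 times and 43 did not. Of 756 alternative single-gene results 675 kept their side of the threshold, 48 lost and 30 gained a call, and 3 reversed.

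With 1 pooled library per condition, the counting error of BBC3, at 25 to 164 counts, and the unknown spread between cultures limit every single-library ratio. No paired analysis was possible because the labels give no replicate numbers that groups share, beyond the matched controls used as blocks.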
